A study of Mus musculus with 19 samples.

Results

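Nuclear receptors are transcription factors that bind small fat-soluble molecules, and the receptor genes and coregulator genes described here are 36 of the 24054 gene symbols in an RNA-seq table of mouse liver. They were taken by symbol, as 27 receptors (the bile acid receptor Nr1h4 and its partners, Nr1i2, the HNF4, retinoid, thyroid hormone, steroid and orphan receptors, Ppard and Esrra) and 9 coregulators (6 coactivators and 3 corepressors). Of the 36 genes, 34 reached a mean value of 1 over the 6 livers and were tested, and Hnf4g and Nr2f1 were not.

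A receptor with its ligand, or without any known ligand in the case of the orphan receptors, sits on response elements in DNA. Many receptors do so as a pair with a retinoid X receptor. A bound ligand exchanges corepressors of the NCoR type, which bring the deacetylase HDAC3, for coactivators of the p160 family, for PGC-1 proteins and for the Mediator complex. In liver, receptors of this family set bile acid synthesis, detoxification, fasting metabolism and much of the hepatocyte's own gene program.

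The question was which of these genes differ in liver that has lost RALY, an RNA-binding protein of the heterogeneous nuclear ribonucleoprotein (hnRNP) family. All 6 mice were C57BL/6 mice with floxed Raly alleles (Raly flox/flox) on a chow diet. They were male where the methods do not say otherwise, and their age is not given in the sources used here. The study mentions fasting beside its liver qPCR and does not say whether the mice of the RNA-seq were fasted. Its figure legend gives 4 mice per group for the RNA-seq, whereas the values used here come from 3 per group. In 3 mice AAV8.TBG.Cre, a virus whose TBG promoter drives Cre recombinase in hepatocytes, removed Raly exons 3 and 4 (L-RalyKO). The 3 control mice, which the labels call wild type, received AAV8.TBG.GFP, and liver was taken 4 weeks after the virus. Liver cells other than hepatocytes keep Raly in this model. RNA came from whole liver, so that fewer cells of a type and less RNA per cell cannot be told apart.

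Values are reads on a gene per 1000000 reads of the library's effective total, that is, its total after scaling by the authors, and gene length does not enter them. Between 28302983 and 38052705 reads per mouse were counted on genes, and 3 reads correspond to a value between 0.0789 and 0.105. Raly itself had values of 50.1, 48.6 and 46.8 in the control mice and of 6.34, 6.61 and 7.39 in the L-RalyKO mice (log2 fold change −2.67, adjusted p = 6.92e-07, limma). The 3 L-RalyKO mice were thus all below the controls in the deleted gene. Groups were compared with limma on log2(value + 1) over all 11580 genes whose mean value reached 1, and a gene is called here where its Benjamini-Hochberg adjusted p over these genes was under 0.05. Fold changes on this scale understate the change of low genes.

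Of the 34 members tested, 8 were called (23.5%), against 6.55% of all genes tested. The members were chosen with earlier results of these data known, so the higher share is no test of the gene family. In lists of further genes of the same kinds, 1 of 11 tested receptors and 0 of 38 tested coregulators were called. Nr1i2, Hnf4a, Rara and Ppargc1b were higher in L-RalyKO liver (4 members, against 3.36% of all genes called higher), and Nr3c2, Rxrg, Rarb and Nr4a2 were lower (4 members, against 3.19% called lower). Nr4a2 reached the mean of 1 only through the controls, its mean being 0.77 in L-RalyKO liver, so that its count among the 8 supports nothing. With library totals alone as the scaling, 324 genes of the whole table were called higher and 469 lower, against 389 and 369 with the authors' scaling, and the 8 members kept their direction and call. At an unadjusted p under 0.05 there were 15 members (44.1%), against 22.7% of all genes. The values of 15 members did not overlap between the groups (44.1%, against 28.1% of all genes), 9 higher (14.4% of all genes) and 6 lower (13.7%), and for each of them the two-sided exact permutation test gave p = 0.1, the smallest that 3 mice against 3 allow. The median log2 fold change of the members was 0.00, as it was over all genes, and the median of its absolute size was 0.15 against 0.10. The count of called members depended on single mice. It was 2 without control 1 (Nr1i2 and Nr3c2), 5 without control 2, 9 without control 3, 3 without L-RalyKO 1, 5 without L-RalyKO 2 and 6 without L-RalyKO 3, and the share of all genes called was then 3.19%, 4.66%, 7.02%, 2.87%, 3.77% and 4.24%. A required mean of 5 left 31 members to test, of which 5 were called (7.52% of all genes), and with genes of at least 1 read tested 6 were called (2.81%).

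**Figure D1:**
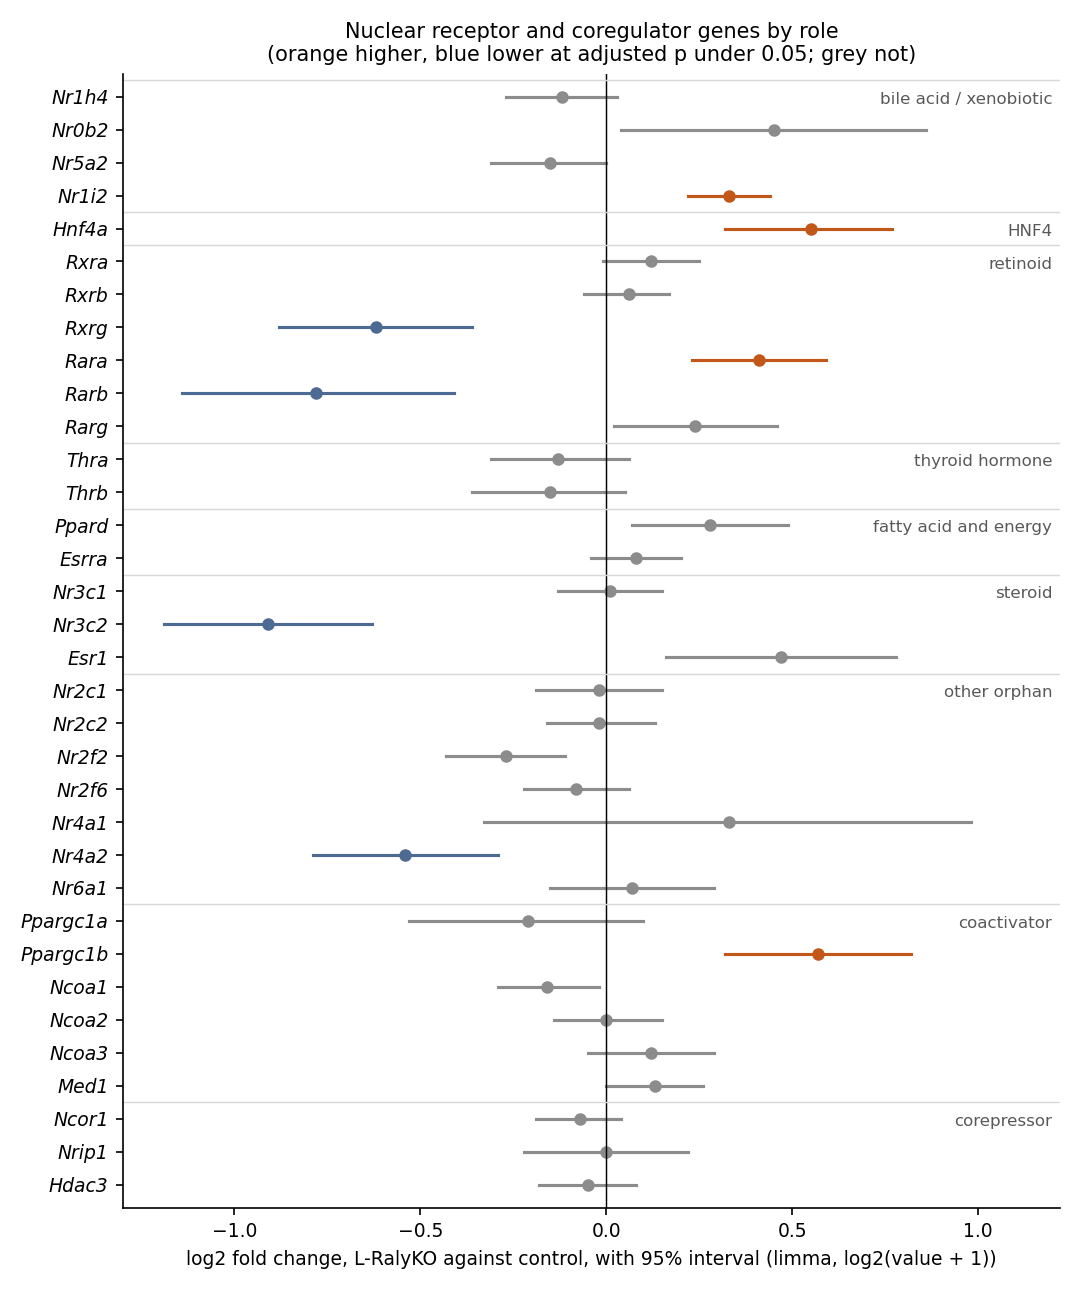
Log2 fold change (x axis, limma on log2(value + 1)) of the 34 tested members, ordered by role, with 95% intervals as bars. The 8 called members stand out in orange (higher) and blue (lower), and the 26 others lie between −0.27 and 0.47.

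**Figure D2:**
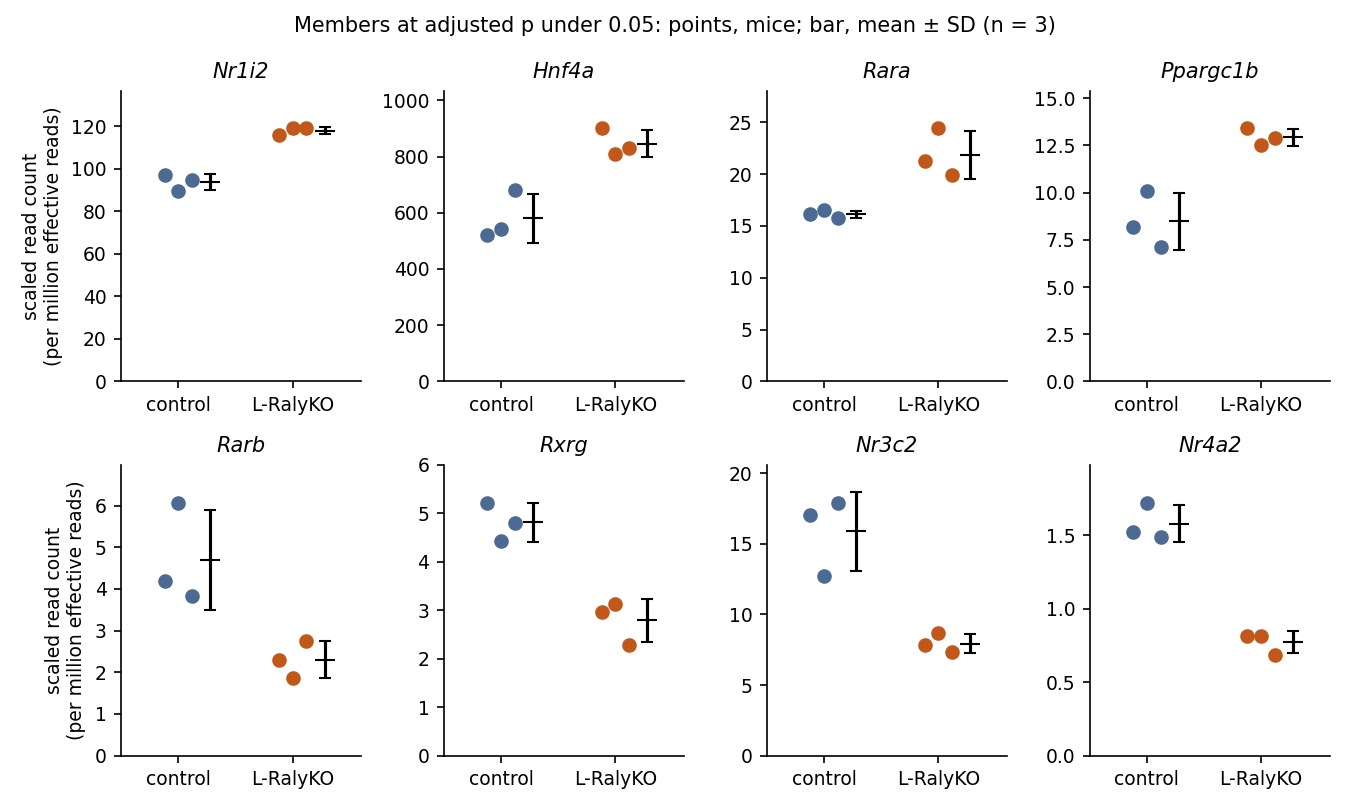
Scaled read counts (y axes from 0) of the 8 called members in each mouse, with bars for mean ± SD of 3 mice. The groups do not overlap in any of the 8, from Hnf4a at 520 to 900 down to Nr4a2 at 0.684 to 1.72.

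Among the receptors of bile acids and foreign compounds, Nr1i2 rose. It encodes PXR, the receptor that switches on drug-metabolising enzymes, and lies on chromosome 16 from 38248409 to 38294910 in the mouse build NCBIM37 (mm9). Its values were 97.2, 89.6 and 94.9 in the control mice and 116, 119 and 119 in the L-RalyKO mice. Every L-RalyKO mouse was above every control, and the mice within a group lay close together (93.9 ± 3.9 against 118 ± 2, SD, n = 3 each, 1.26-fold). In limma it rose by 0.33 on the log2 scale (standard error, SE, 0.048, adjusted p = 0.00725), and the call held without any single mouse and under the other settings tried (adjusted p at most 0.0295).

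Nr0b2 encodes SHP, a receptor without a DNA-binding domain that bile acids induce through FXR and that represses other receptors. Its values were 10.6, 8.17 and 12.4 in control and 12.3, 19.1 and 12.6 in L-RalyKO liver. L-RalyKO 2 was the highest, and L-RalyKO 1 lay just under control 3, so that the groups overlapped (log2 fold change 0.45, 95% interval 0.04 to 0.86, adjusted p = 0.184, limma). Nr1h4, the gene of FXR itself, had 174 ± 10.8 in control and 161 ± 11.5 in L-RalyKO liver (SD, n = 3 each), and the interval of its log2 fold change was −0.27 to 0.03. Nr5a2, which encodes LRH-1, a receptor of the bile acid synthesis genes that SHP represses, had 49.1 ± 4.17 and 44 ± 1.82, and overlapped as well (log2 fold change −0.15).

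Hnf4a, the gene of the hepatocyte identity factor HNF4alpha, rose. In control liver its mean per exon length was the highest of the tested members, although its range of mean ± SD met that of Rxra. Hnf4a lies on chromosome 2 from 163332544 to 163398646 (NCBIM37). Its values were 520, 542 and 680 in the control mice and 900, 809 and 829 in the L-RalyKO mice. The lowest L-RalyKO mouse was above the highest control, although control 3 lay well above the other controls (581 ± 86.8 against 846 ± 47.8, SD, n = 3 each, 1.46-fold). In limma the difference was 0.55 on the log2 scale (SE 0.0987, adjusted p = 0.0155). The call was lost, with log2 fold changes of 0.48 to 0.50, without control 1 (adjusted p = 0.0509), without control 2 (0.051) and without L-RalyKO 1 (0.0617). A gene on the opposite strand, 0610008F07Rik, covers 34913 bp of the Hnf4a locus and has no value under that symbol in the RNA-seq table. The library kit keeps strand, but the strand setting of the counting is not stated. The paralogue Hnf4g was close to the floor, with 3, 4 and 6 reads in control and 1, 2 and 4 reads in L-RalyKO liver.

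Retinoic acid receptors bind all-trans retinoic acid, the acid form of vitamin A, and work as pairs with a retinoid X receptor. The 3 genes of retinoic acid receptors did not move together. Rara, on chromosome 11 from 98789132 to 98836256, had values of 16.1, 16.5 and 15.8 in control and of 21.3, 24.4 and 19.9 in L-RalyKO liver. All L-RalyKO mice were above the narrow range of the controls (16.1 ± 0.333 against 21.9 ± 2.31, SD, n = 3 each, 1.35-fold). This was 0.41 on the log2 scale (SE 0.0785, adjusted p = 0.0195, limma), and the call was lost without control 1 (adjusted p = 0.064) and without L-RalyKO 1 (0.0613).

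Rarb, on chromosome 14 from 17263356 to 17651381, went the other way. This receptor gene is itself a classical target of retinoic acid, through a response element in its promoter. It had values of 4.2, 6.07 and 3.84 in control and 2.3, 1.86 and 2.76 in L-RalyKO liver, from 141, 173 and 142 reads and from 79, 64 and 105 reads. Control 2 was the highest, and all L-RalyKO mice were below the lowest control (4.7 ± 1.19 against 2.31 ± 0.453, SD, n = 3 each, 0.49 times the control mean). On the log2 scale Rarb changed by −0.78 (SE 0.161, adjusted p = 0.0269, limma). The call was lost without control 1 (adjusted p = 0.0621), control 2 (0.0527), L-RalyKO 1 (0.0819) or L-RalyKO 2 (0.0858), with genes of at least 1 read tested (0.0639) and with a replicate block (0.0617). Rarg, the remaining receptor of retinoic acid, had 4.8, 4.35 and 4.65 in control and 5.44, 6.35 and 5.08 in L-RalyKO liver. Its groups did not overlap, but the difference did not pass (log2 fold change 0.24, adjusted p = 0.181, limma).

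Per length of annotated exons, Rara made up 59.1%, 55.4% and 60.1% of the 3 retinoic acid receptor genes together in the control mice and 69.8%, 71.7% and 67.7% in the L-RalyKO mice. Rarb made up 21.4%, 28.3% and 20.3% against 10.4%, 7.57% and 13.1%. In neither share did the groups overlap, whereas that of Rarg did (18.5% ± 1.93 against 19.9% ± 0.766, SD, n = 3 each). A share depends on the other genes of its family, so that these values restate the opposite changes of Rara and Rarb on a common scale.

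The retinoid X receptors, the shared partners of many receptors, differed by gene. Rxrg, the scarcest of them, on chromosome 1 from 169528515 to 169569754, had values of 5.22, 4.42 and 4.81 in control and 2.97, 3.13 and 2.29 in L-RalyKO liver. The groups were well apart (4.82 ± 0.399 against 2.8 ± 0.447, SD, n = 3 each, 0.581 times). On the log2 scale the change was −0.62 (SE 0.113, adjusted p = 0.0162, limma), and the call was lost without control 1 (adjusted p = 0.063). Rxra, which held 90.1% ± 0.311 of the family per exon length in control liver, had 534 ± 26.5 and 582 ± 25.2 (log2 fold change 0.12, adjusted p = 0.247, limma), with overlap. Rxrb had 31.9 ± 0.578 and 33.2 ± 0.485, which did not overlap but differed by a log2 fold change of 0.06 only. Per exon length, the share of Rxrg among the retinoid X receptors went from 1.93% to 1.04%. That of Rxra went from 90.1% to 91.3%, and in neither share did the groups overlap.

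**Figure D3:**
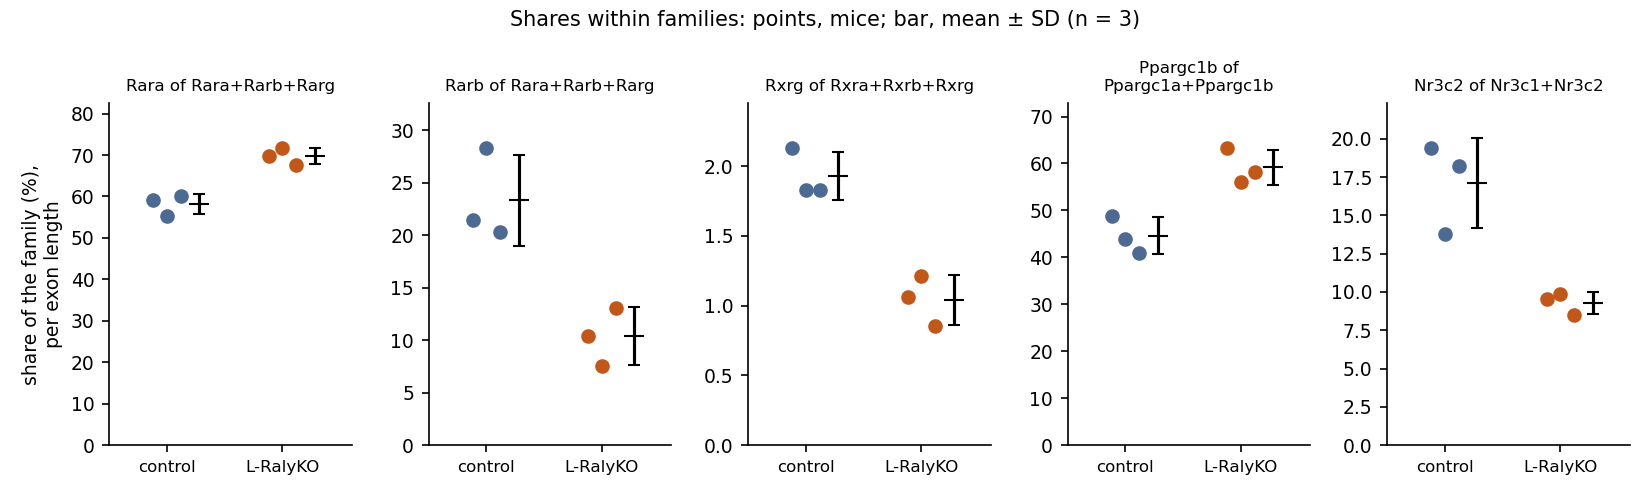
Share of a gene within its family per exon length (y axes in percent, from 0) in each mouse, with bars for mean ± SD of 3 mice. Rara took a larger share (58.2% to 69.7%) and Rarb a smaller one (23.3% to 10.4%) in L-RalyKO liver, Ppargc1b rose from 44.6% to 59.2% of the PGC-1 genes and Nr3c2 fell from 17.1% to 9.3% of the pair with Nr3c1.

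The promoter of Rarb is shown because it carries the retinoic acid response element, and that of Cyp26a1, the enzyme that degrades retinoic acid, because it is the other called gene that holds the same letters. Both windows run from 250 bases before to 50 bases after the annotated start, on the strand of the gene, in RefSeq's annotation of GRCm38.p6 (Rarb chr14:16575427-16575726, − strand, and Cyp26a1 chr19:37697558-37697857, + strand). Capitals mark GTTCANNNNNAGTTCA, read on either strand.
Rarb: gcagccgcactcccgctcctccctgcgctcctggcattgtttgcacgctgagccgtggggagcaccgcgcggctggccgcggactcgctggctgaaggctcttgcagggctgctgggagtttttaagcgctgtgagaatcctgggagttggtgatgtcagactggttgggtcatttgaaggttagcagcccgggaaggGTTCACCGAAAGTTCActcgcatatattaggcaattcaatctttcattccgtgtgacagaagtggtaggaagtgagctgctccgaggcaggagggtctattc
Cyp26a1: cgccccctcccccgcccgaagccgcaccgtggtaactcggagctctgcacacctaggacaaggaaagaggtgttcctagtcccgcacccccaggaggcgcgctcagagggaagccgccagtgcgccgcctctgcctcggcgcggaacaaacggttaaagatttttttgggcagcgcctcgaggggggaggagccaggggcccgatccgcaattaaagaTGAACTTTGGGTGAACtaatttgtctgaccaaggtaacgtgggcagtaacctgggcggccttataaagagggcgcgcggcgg
The letters begin 52 bases before the start in Rarb and 32 bases before it, on the opposite strand, in Cyp26a1. They were taken from the element of Rarb, so its own match is given by the choice. Among all 32851 promoter windows 11 held them (0.0335%), in 11 genes, of which 6 were in the table, 4 were tested and 2 were called (6.55% of all genes tested), Rarb by whose letters the search was made and Cyp26a1. Cyp26a1 had values of 7.21, 14.5 and 7.11 in control and 3.43, 4.76 and 3.05 in L-RalyKO liver. As for Rarb, control 2 was the highest mouse and every L-RalyKO mouse was below every control (log2 fold change −1.11, SE 0.245, adjusted p = 0.0349, limma). That call was lost without control 1 (adjusted p = 0.0519), L-RalyKO 1 (0.107) or L-RalyKO 3 (0.1), with edgeR's quasi-likelihood test on the reads (0.0939), with voom (0.053), without an intensity trend (0.061) and with genes of at least 1 read tested (0.0778).

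In a list of 9 genes that retinoic acid induces, 6 were tested, of which none was called higher (3.36% of all genes) and 2 lower (3.19%), Cyp26a1 and Tgm2, and 5 of the 6 had a negative log2 fold change (median −0.23, against 0.00 over all genes). Tgm2, the gene of tissue transglutaminase, had values of 94.9, 94.1 and 90.7 against 80.4, 71.6 and 80.8. The groups did not overlap and the difference was small (log2 fold change −0.26, adjusted p = 0.0345, limma), and its adjusted p was between 0.0522 and 0.108 without control 1, control 2 or any of the L-RalyKO mice. Over the alternatives between 0 and 3 genes of this list were called. The summed level of the list was 483.9 to 502.3 in control and 442.3 to 463.7 in L-RalyKO liver, lower without overlap.

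The thyroid hormone receptors, of which TRbeta is the main form in liver, showed no called change (6.55% of all genes were called). Thrb had 48.5 ± 2.96 in control and 43.7 ± 5.56 in L-RalyKO liver and Thra 8.14 ± 0.594 and 7.37 ± 0.403 (SD, n = 3 each), with intervals of the log2 fold change of −0.36 to 0.05 and −0.31 to 0.06. The share of Thrb in the pair was 80.6% ± 1.8 and 80.4% ± 1.29 per exon length. Thra ends within Nr1d1 on the opposite strand, over 1075 bp. Of 9 tested genes that thyroid hormone controls, 1 was called higher (3.36% of all genes) and 2 lower (3.19%). Klf9, a Kruppel-like factor that glucocorticoids also induce, rose from 90.3 ± 8.81 to 156 ± 1.85 (log2 fold change 0.79, adjusted p = 0.000881, limma). Gpd2, the mitochondrial glycerol-3-phosphate dehydrogenase, fell from 80.3 ± 11.7 to 53.9 ± 2.74 (−0.56, adjusted p = 0.012, limma). Fasn, fatty acid synthase, fell from 668 ± 93.4 to 471 ± 65.5 (−0.50, adjusted p = 0.0445, limma), with an adjusted p of 0.053 to 0.116 without control 1, control 2 or any of the L-RalyKO mice.

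Ppard and Esrra stand for the receptors of fatty acids and of mitochondrial gene expression. Ppard, the gene of the fatty acid receptor PPARdelta, had values of 5.48, 6.42 and 6.35 in control and 7.68, 8.27 and 6.92 in L-RalyKO liver. The groups did not overlap, but the log2 fold change of 0.28 did not pass (adjusted p = 0.11, limma). Esrra, whose product ERRalpha works with the PGC-1 coactivators on mitochondrial genes, had 42.8 ± 1.27 and 45.4 ± 1.76 (SD, n = 3 each), with an interval of the log2 fold change of −0.04 to 0.20.

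Nr3c2 fell, with the largest called change of the members on the log2(value + 1) scale, whereas by the ratio of means the scarcer Nr4a2 (0.489) and Rarb (0.49) were slightly lower than Nr3c2 (0.5). It encodes the mineralocorticoid receptor, which binds aldosterone and also cortisol or corticosterone, and lies on chromosome 8 from 79423341 to 79768911. Its values were 17, 12.7 and 17.9 in control and 7.8, 8.65 and 7.34 in L-RalyKO liver. All L-RalyKO mice were below the lowest control, at 0.5 times the control mean (15.9 ± 2.79 against 7.93 ± 0.662, SD, n = 3 each). That is a log2 fold change of −0.91 (SE 0.123, adjusted p = 0.00523, limma), and the call held without any single mouse and under the other settings tried (adjusted p at most 0.0264). An overlapping gene on the opposite strand, Gm10649, is listed at 0 in the table.

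Nr3c1, the gene of the glucocorticoid receptor, which shares ligands and DNA elements with the mineralocorticoid receptor, had values of 81, 90.9 and 92.6 in control and 85, 90.5 and 90.5 in L-RalyKO liver. The L-RalyKO mice lay within the range of the controls (log2 fold change 0.01, 95% interval −0.13 to 0.15, a sign that turned under total count scaling). Per exon length Nr3c2 made up 19.4%, 13.8% and 18.2% of the pair in control and 9.51%, 9.88% and 8.51% in L-RalyKO liver, without overlap. In a list of 15 genes that the glucocorticoid receptor induces, 6 were called higher and 1 lower (against 3.36% and 3.19% of all genes), with a median log2 fold change of 0.44 against 0.00 over all genes (between 5 and 10 called over the alternatives). Of the 15, 5 had a negative log2 fold change, which were the called G6pc, glucose-6-phosphatase (−0.61), and Tsc22d3 (−0.78), Sgk1 (−0.45), Lcn2 (−0.12) and Per1 (−0.07), not called, all named after their values were seen. Fkbp5, a chaperone of steroid receptors and a standard readout of glucocorticoid action, had values of 67.2, 53.1 and 119 in control and 233, 194 and 216 in L-RalyKO liver. Control 3 was high and still below all L-RalyKO mice (2.69-fold, adjusted p = 0.0105, limma, and 0.0983 with edgeR's quasi-likelihood test). The metallothionein genes Mt1 and Mt2 were 2.04-fold and 2.3-fold higher (adjusted p = 0.00343 and 0.025, limma), the latter with an adjusted p of 0.0525 to 0.0759 without any 1 of the controls or without L-RalyKO 1. Zbtb16, a zinc finger gene of the list whose rise was known when the list was written, had 9.9 ± 2.92 and 93.9 ± 10.4 (log2 fold change 3.15, adjusted p = 0.000119, limma).

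Esr1, the gene of the estrogen receptor ERalpha, had values of 4.14, 5.01 and 5.35 in control and 6.17, 6.44 and 8.76 in L-RalyKO liver. L-RalyKO 3 was the highest and no mouse of the groups overlapped, but the log2 fold change of 0.47 was not called (95% interval 0.16 to 0.78, adjusted p = 0.0776, limma). DESeq2 on the reads gave an adjusted p of 0.0269.

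Of the other orphan receptors, 7 were tested and Nr4a2 alone was called, lower (3.19% of all genes). It entered the test through its control values. Nr4a2, on chromosome 2 from 56959241 to 56976414, encodes NURR1, an immediate early receptor best known from dopamine neurons. It was scarce, with 51, 49 and 55 reads in control and 28, 28 and 26 reads in L-RalyKO liver, which are values of 1.52, 1.72 and 1.49 against 0.814, 0.812 and 0.684. Every L-RalyKO mouse was below every control (0.489 times the control mean). On the log2(value + 1) scale the change was −0.54 (SE 0.108, adjusted p = 0.0236, limma), and −1.04 was the lowest over the alternatives. The call was lost without control 1 (adjusted p = 0.0651), control 2 (0.0666), L-RalyKO 1 (0.0703), L-RalyKO 2 (0.058) or L-RalyKO 3 (0.0676) and with a replicate block (0.0504). Nr4a1, its paralogue NUR77, had 3.19, 8.35 and 7.33 against 6.08, 7.25 and 9.97. Control 1 was low, the groups overlapped, and the log2 fold change of 0.33 was −0.03 without that mouse.

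Nr2f2 encodes COUP-TFII, a receptor that often opposes HNF4alpha and retinoid receptors at shared elements. It had 36, 36.4 and 31.6 in control and 30.2, 27.4 and 28.1 in L-RalyKO liver. All L-RalyKO mice were lower, and the log2 fold change of −0.27 did not pass (adjusted p = 0.0585, limma). It passed with edgeR's quasi-likelihood test (adjusted p = 0.0464), with DESeq2 (0.0265), with total count scaling (0.0437) and without control 3 (0.0225). Nr2f6, the more abundant COUP family member EAR2, had 71.4 ± 5.34 and 67.4 ± 1.38, and Nr2f1, with values between 0.324 and 0.701, was too low to be tested. Nr2c1, Nr2c2 and Nr6a1, known from testis and germ cells, had log2 fold changes of −0.02, −0.02 and 0.07, and the sign of each turned without at least 1 of the mice. Nr2c2 shares 3533 bp with Mrps25 and Nr2f6 shares 5239 bp with Ocel1, both on the opposite strand.

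Of the coactivators, Ppargc1b rose. It encodes PGC-1beta, a coactivator of mitochondrial and lipid synthesis genes, on chromosome 18 from 61457790 to 61560085. Its values were 8.2, 10.1 and 7.14 in control and 13.4, 12.5 and 12.9 in L-RalyKO liver. The L-RalyKO mice lay close together and above all controls (8.48 ± 1.5 against 12.9 ± 0.467, SD, n = 3 each, 1.53-fold). Its log2 fold change was 0.57 (SE 0.11, adjusted p = 0.0204, limma). The call was lost without control 1 (adjusted p = 0.0708), L-RalyKO 1 (0.0762), L-RalyKO 2 (0.0535) or L-RalyKO 3 (0.059) and with genes of at least 1 read tested (0.0515).

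Ppargc1a, the gene of PGC-1alpha, the coactivator that fasting induces in liver, had 14.3, 21.4 and 17.1 against 12.9, 16.3 and 15.5. The groups overlapped (log2 fold change −0.21, 95% interval −0.53 to 0.10). Ppargc1b thereby made up 48.9%, 44% and 41% of the PGC-1 pair per exon length in control and 63.3%, 56.1% and 58.1% in L-RalyKO liver. Of 18 tested genes that PGC-1 proteins and ERRalpha control, such as those of the citric acid cycle and the respiratory chain, none was called by limma, none under any alternative, and 1 had an unadjusted p under 0.05, against 22.7% of all genes (median log2 fold change −0.02).

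The p160 coactivators bind receptors that hold a ligand. Ncoa1 had 24.8, 25.6 and 24.6 in control and 23.6, 21.5 and 22 in L-RalyKO liver. The groups did not overlap, but the log2 fold change of −0.16 was not called (adjusted p = 0.154, limma). The values of its relatives Ncoa2 (57.9 ± 2.77 and 58.1 ± 4.16) and Ncoa3 (30.8 ± 2.84 and 33.4 ± 1.79, SD, n = 3 each) overlapped. Med1, the Mediator subunit that touches receptors, had 32.8, 32.2 and 35.5 against 36.2, 36.4 and 37.6, all L-RalyKO mice being higher (log2 fold change 0.13, adjusted p = 0.217, limma).

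None of the 3 corepressor genes was called by limma (6.55% of all genes) or under any alternative. None had an unadjusted p under 0.05 in limma (22.7% of all genes). With 3 genes, these shares allow no statement on corepressors as a group. Ncor1, the scaffold that unliganded receptors bind, had 124 ± 5.25 in control and 117 ± 3.54 in L-RalyKO liver (95% interval of the log2 fold change −0.19 to 0.04). Hdac3, its deacetylase, had 32.5 ± 1.71 and 31.3 ± 0.846 (−0.18 to 0.08). Nrip1, which encodes RIP140, a corepressor of liganded receptors, had 5.75 ± 0.425 and 5.76 ± 0.635 (−0.22 to 0.22, SD, n = 3 each). Among 38 further tested coregulator genes, written as a list of p160 relatives, acetyltransferases, NCoR subunits, Mediator subunits and others, none was called by limma and 5 had an unadjusted p under 0.05 (22.7% of all genes). The median log2 fold change of that list was −0.03, and over the alternatives at most 1 gene was called.

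Per kb of annotated exons, the members covered a wide range of levels in control liver. Hnf4a (116 ± 17.3 per kb) and Rxra (97.8 ± 4.85) came first, and their ranges of mean ± SD met. Nr1h4 (75.7 ± 4.68), Nr1i2 (36.8 ± 1.53), Nr2f6 (23.9 ± 1.79) and Esrra (16.9 ± 0.501) followed, each apart from its neighbours by more than their SDs. Nr5a2 (12.8 ± 1.09) and Nr3c1 (11.9 ± 0.847) could not be ordered by this measure. The called members that rose stood in ranks 1 (Hnf4a), 4 (Nr1i2), 18 (Rara) and 25 (Ppargc1b) of the 34 tested, and those that fell in ranks 23 (Nr3c2), 26 (Rxrg), 28 (Rarb) and 33 (Nr4a2). At the low end Nr4a2 (0.388 ± 0.0308 per kb) and Esr1 (0.354 ± 0.0456) could not be ordered either.

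**Figure D4:**
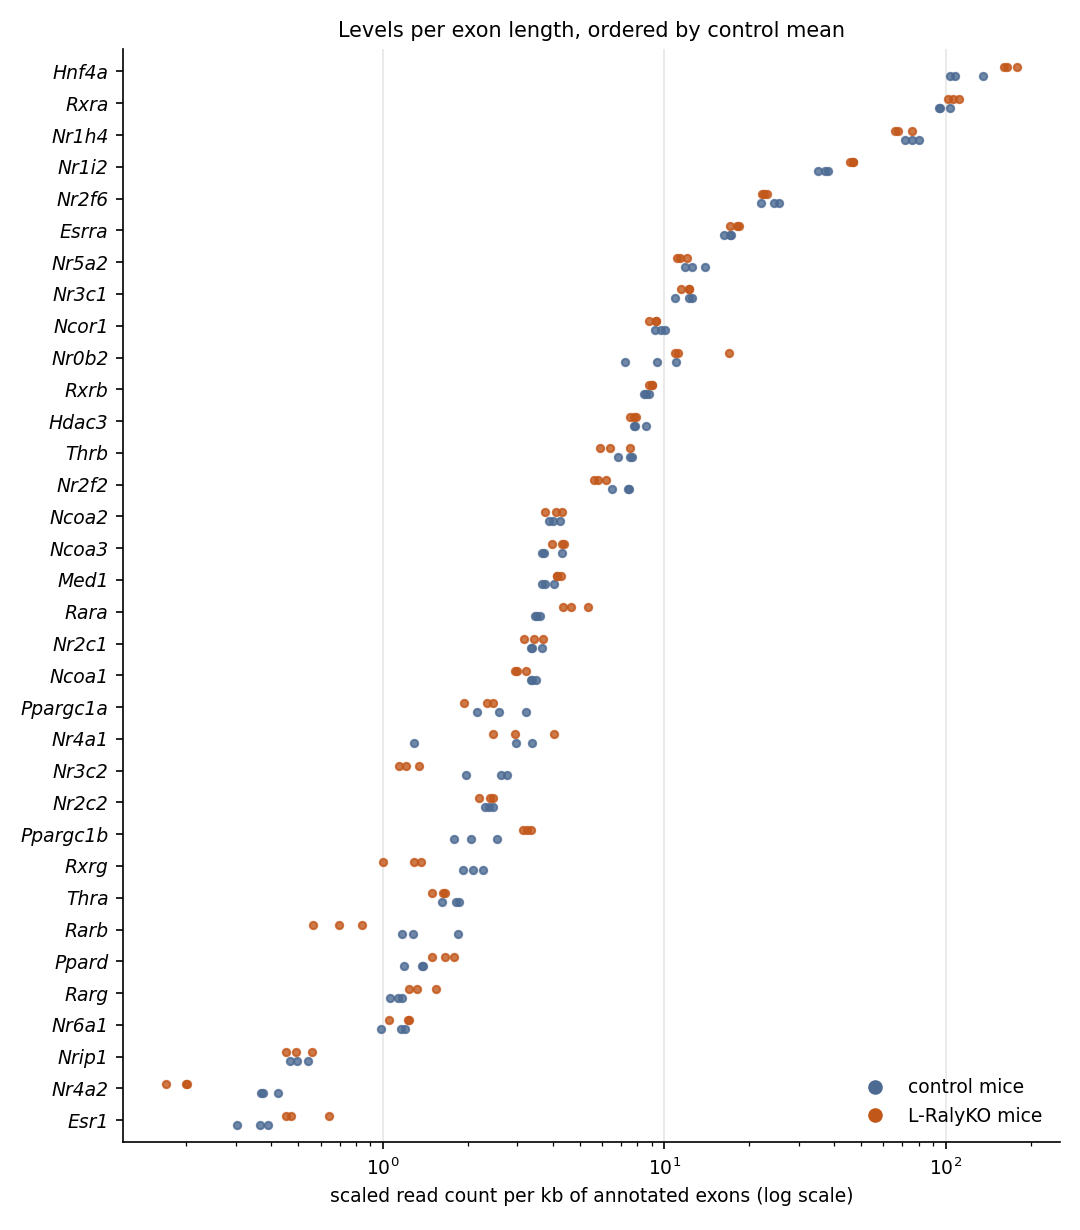
Scaled read count per kb of annotated exons (x axis, log scale) of each tested member in the 3 control mice (blue) and the 3 L-RalyKO mice (orange), ordered by control mean. Hnf4a has the highest mean in both groups (116 per kb in control and 168 in L-RalyKO liver), and the called members that fell all lie below Ppargc1a.

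The promoters of Nr1i2 and Nr3c2 are shown because these were the members called under every setting tried. CCAAT, the letters that the factor NFY binds, stands in capitals on either strand, in RefSeq windows of GRCm38.p6 of the kind given for Rarb (Nr1i2 chr16:38294775-38295074, − strand, and Nr3c2 chr8:76902080-76902379, + strand).
Nr1i2: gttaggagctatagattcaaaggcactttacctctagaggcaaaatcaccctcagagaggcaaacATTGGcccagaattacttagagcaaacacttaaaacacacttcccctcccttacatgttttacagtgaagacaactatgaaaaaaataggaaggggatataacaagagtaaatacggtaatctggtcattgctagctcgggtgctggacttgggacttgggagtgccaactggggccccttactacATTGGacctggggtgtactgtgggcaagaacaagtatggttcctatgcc
Nr3c2: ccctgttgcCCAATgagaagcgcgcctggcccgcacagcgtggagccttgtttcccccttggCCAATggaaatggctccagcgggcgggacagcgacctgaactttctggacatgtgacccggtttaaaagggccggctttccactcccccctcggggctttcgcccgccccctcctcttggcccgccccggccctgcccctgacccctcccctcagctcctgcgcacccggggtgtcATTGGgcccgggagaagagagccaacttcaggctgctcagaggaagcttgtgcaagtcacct
In Nr1i2 a match begins 185 bases before the start and another just after it, and in Nr3c2 matches begin 241, 188 and 12 bases before it. Windows were found for 29 of the 36 members. CCAAT was in 14 of their 44 windows (31.8%), against 37.4% of all windows. It was in 7 of 12 windows of called members, where a gene can have several windows (Rara has 4). By gene it was in 5 of the 7 called members with a window, some higher and some lower. No share by gene was computed over all genes, so this count shows no excess. AGGTCA, the core letters of many receptor elements, was in 18.2% of the member windows and in 16.3% of all, and AGTTCA, of which the Rarb element holds a copy, in 15.9% and 14%.

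In a list of 21 further nuclear receptor genes, 11 were tested, of which none was called higher (3.36% of all genes) and 1 lower (3.19%, and between 0 and 2 called over the alternatives). Pparg, a receptor of fat storage, had values of 16.6, 11.6 and 12.2 in control and 7.91, 8.85 and 7.03 in L-RalyKO liver. No mouse of the groups overlapped (log2 fold change −0.68, adjusted p = 0.0214, limma), and the adjusted p was 0.0709 without L-RalyKO 1 and 0.066 without L-RalyKO 3. The median log2 fold change of the 11 was 0.01, against 0.00 over all genes.

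Genes that receptors of bile acids and foreign compounds and HNF4alpha are known to control were read from lists. Of 14 tested targets of PXR and the related receptor CAR, 3 were called higher, against 3.36% of all genes, and none lower (median log2 fold change 0.10 against 0.00 over all genes, and between 2 and 4 called over the alternatives). Of the 14, 8 had a positive and 6 a negative log2 fold change, and among the latter were the cytochrome P450 genes Cyp3a11 (−0.19) and Cyp2b10 (−0.47), standard targets that were not called and are named here after their values were seen. Gstm3, a glutathione transferase, had values of 43, 37.2 and 36 in control and 106, 90.7 and 69.4 in L-RalyKO liver. Por, the reductase that feeds electrons to cytochrome P450 enzymes, had 546, 631 and 672 against 948, 966 and 874. Both were higher in every L-RalyKO mouse (log2 fold changes 1.16 and 0.60, adjusted p = 0.00312 and 0.00531, limma). Cyp2c55 rose by 0.42 on the log2 scale (adjusted p = 0.0365, limma), with an adjusted p of 0.0574 to 0.123 without control 2, control 3 or any of the L-RalyKO mice. Gstm3 and Cyp2c55 belong to families of similar genes whose reads may be shared.

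Of 14 tested targets of HNF4alpha, none was called higher (3.36% of all genes) and 1 lower (3.19%), and the median log2 fold change was 0.04 (between 1 and 5 called over the alternatives, the latter with DESeq2, 3 higher and 2 lower). An unadjusted p under 0.05 was reached by 7 of the 14 (22.7% of all genes), 9 did not overlap between the groups (28.1%), and the summed level of the list was higher in every L-RalyKO mouse. The called gene, Pklr, liver pyruvate kinase, fell from 623 ± 53.4 to 455 ± 11.2 (log2 fold change −0.45, adjusted p = 0.00798, limma). Of 12 tested targets of FXR and LRH-1, none was called higher and 1 lower (3.36% and 3.19% of all genes), with a median of −0.03 (between 0 and 3 called over the alternatives). Here 6 of the 12 had an unadjusted p under 0.05 (22.7% of all genes), and the summed level, 8921 to 10042 in control and 10742 to 10903 in L-RalyKO liver, was also higher without overlap. By sign, however, 7 of the 12 had a negative and 5 a positive log2 fold change, so the sum does not stand for most of these genes. The called gene was Pltp, the phospholipid transfer protein, at 93.2 ± 8.4 against 65.1 ± 12.6 (log2 fold change −0.52, adjusted p = 0.0443, limma), and its adjusted p was 0.104 to 0.137 without control 1, control 2, L-RalyKO 1 or L-RalyKO 3. The lists were written from general knowledge, and 11 genes stand in more than 1 list.

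**Figure D5:**
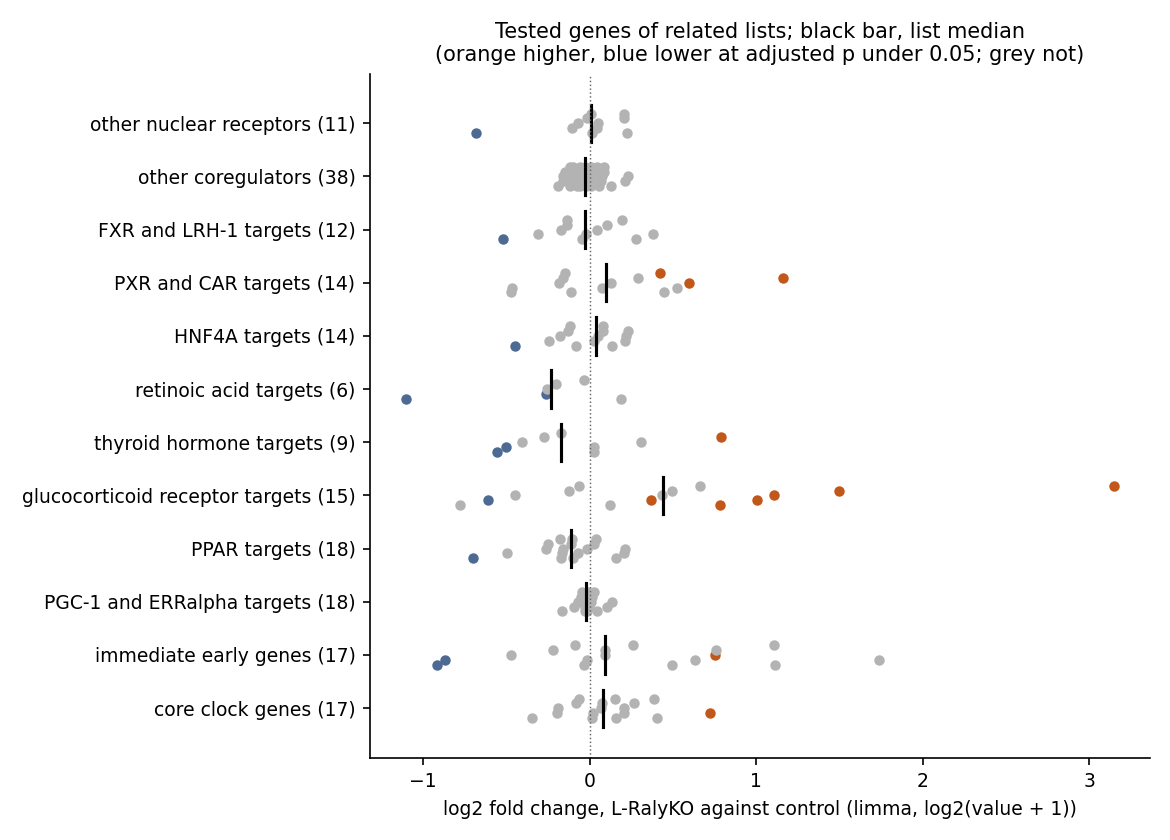
Log2 fold change (x axis, limma on log2(value + 1)) of each tested gene in 12 lists of related genes (rows, with the number tested), with the list median as a black bar. The glucocorticoid receptor list has the highest median (0.44) and the retinoic acid list the lowest (−0.23), and most genes are grey, that is, not called.

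Markers of liver cell types were set beside these values. The summed level of 10 hepatocyte markers was 95718 to 105425 in control and 109218 to 110621 in L-RalyKO liver and did not overlap. All 10 had positive fold changes on the log2 scale (median 0.13). Only Pck1, which is also a glucocorticoid target, was called (log2 fold change 0.78, adjusted p = 0.00312, limma). Of these markers, 4 had an unadjusted p under 0.05 in limma (22.7% of all genes). The groups did not overlap in 5 of the 10 (28.1%). The sums for stellate cells and fibroblasts (238.5 to 266.6 and 234.2 to 304.4), sinusoidal endothelium (277.1 to 282.7 and 245.7 to 305.8), Kupffer cells (203 to 292.3 and 203.5 to 262.3), cholangiocytes (45.04 to 49.09 and 42.96 to 51.97) and lymphocytes (9.21 to 11.68 and 8.123 to 10.58) overlapped, and no marker of any of the 6 lists was at 0. No tested gene of these 5 lists was called (6.55% of all genes), but only 4 of 7 cholangiocyte markers and 1 of 9 lymphocyte markers were abundant enough to be tested. In limma 2 of the 4 cholangiocyte and 2 of 9 tested stellate cell and fibroblast markers had an unadjusted p under 0.05 (22.7% of all genes). The groups did not overlap in 2 and 1 markers of these lists (28.1%). Tested markers of endothelium, Kupffer cells and lymphocytes showed neither. The part of cell composition in the changes of Hnf4a, Nr1i2 and the scarce receptors Rarb, Rxrg and Nr4a2 was not tested.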

How the data were processed

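Liver RNA of 3 control and 3 L-RalyKO mice was prepared with a stranded kit and sequenced as paired reads of 150 bp. Per the study's methods, reads were aligned to mm9 with TopHat v2.0.2 and summarised as FPKM, and the submitters' processing notes name Cufflinks 2.0.2 and Cuffdiff. The values the authors deposited are a signal of another kind, namely the reads of a gene over the scaled total of its library, with replicates kept apart. All of them (100% in each library, tolerance 0.001) were whole multiples of 1 read, and the scaling equalled TMM factors. Columns were matched to mice by virus and replicate number.

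The comparison used R 4.3.3 and its package limma 3.58.1 on log2 values (intensity trend, pseudocount 1, mean value filter of 1, Benjamini-Hochberg adjustment, 95% intervals). The script was tested on simulated data first. Alternatives were edgeR 4.0.16 (quasi-likelihood, 783 genes called), DESeq2 1.42.0 and limma voom on the recovered reads, a pseudocount of 0.1, other filters (at least 1 read, mean of at least 5), no trend, total count and upper-quartile scaling, a replicate block and leaving out each mouse. The number of mice limits the precision, and so does the depth for scarce genes. The labels number the samples of a group and say no more of their origin, so p values measure the spread between these samples.

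Members, gene lists and motifs were chosen with earlier results of these data known. All members could be named, and of each list at most 4 called genes with the largest changes. Cyp3a11, Cyp2b10 and the glucocorticoid targets with a negative change stand outside this rule and were picked after their values were seen. Coordinates and exon lengths come from GENCODE vM1 on NCBIM37, and promoter sequences from RefSeq on GRCm38.p6. ATAC-seq and ChIP-seq were not analysed here, and 1 gene left out of a list is not reported here.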

Additional observations from a re-analysis of the deposited data

How the results depend on the processing

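The 8 called members kept their direction in every fit run, and 102 of their 125 alternative values kept the call. The number of called members was 8 with the settings used, 15 at an unadjusted p under 0.05, 5 with a mean value of at least 5 (where Nr4a2, Rarb and Rxrg were not tested) and 2 to 9 when 1 mouse was left out. Over all genes, 758 were called, 484 with genes of at least 1 read tested and 332 to 813 when 1 mouse was left out. Signs turned among members that were not called, which were Nr4a1, with a log2 fold change of 0.33, and others between −0.02 and 0.07. With total count scaling, which moved the median of all genes by −0.0318, the log2 fold change was −0.02 for Nr3c1, −0.03 for Ncoa2 and −0.03 for Nrip1, and that of Nrip1 was −0.00 with a pseudocount of 0.1 and −0.00 with upper-quartile scaling. Leaving out 1 mouse gave −0.05 to 0.05 for Nr3c1, −0.07 to 0.03 for Nr2c1, −0.05 to 0.03 for Nr2c2, −0.03 to 0.55 for Nr4a1, −0.01 to 0.13 for Nr6a1, −0.04 to 0.06 for Ncoa2 and −0.07 to 0.06 for Nrip1. The cause was not tested. Same-numbered mice did not deviate together more than others (correlations 0.066, −0.024 and 0.02, against −0.088 to 0.06 for unlike numbers). With 3 mice per group this cannot decide whether the mice were paired, and the labels do not say. A replicate block gave 704 called genes and 7 called members, without Nr4a2 and Rarb and with Esr1. Of the genes named from the lists, Pparg, Pltp, Cyp2c55, Cyp26a1, Tgm2, Fasn, Fkbp5, Mt2 and Ier2 also lost their call under at least 1 of the settings without a trend, with genes of at least 1 read, with edgeR, with voom or with the block (adjusted p between 0.0506 and 0.12). Depth limits Hnf4g and Nr2f1, which were tested only with genes of at least 1 read, where neither was called.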

Other observations

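Of 18 tested targets of the PPAR receptors, which govern fatty acid oxidation, none was called higher (3.36% of all genes) and 1 lower (3.19%, and between 1 and 4 called over the alternatives). Of the 18, 13 had a negative and 5 a positive log2 fold change (median −0.11 against 0.00 over all genes). The summed level of the list was 14949 to 17537 in control and 13593 to 14640 in L-RalyKO liver, lower without overlap. The called gene was Cyp4a14, a fatty acid hydroxylase, with values of 802, 985 and 968 in control and 467, 590 and 645 in L-RalyKO liver. All L-RalyKO mice were below all controls (log2 fold change −0.70, adjusted p = 0.0138, limma).

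Immediate early genes, the class to which Nr4a1 and Nr4a2 belong, went both ways. Of 17 tested, 1 was called higher (3.36% of all genes) and 2 lower (3.19%), with a median of 0.09. In limma 9 of the 17 had an unadjusted p under 0.05 (22.7% of all genes), and 8 did not overlap between the groups (28.1%). Over the alternatives between 2 and 6 were called, 3 higher and 2 lower with DESeq2, 4 higher and 2 lower without control 3 and 3 higher and 3 lower without L-RalyKO 3. Klf2 and Klf4, Kruppel-like factors, fell (log2 fold changes −0.87 and −0.92, adjusted p = 0.0101 and 0.00811, limma). Ier2 was higher (0.75, adjusted p = 0.0376, limma), with an adjusted p of 0.0666 to 0.114 without control 1, control 2, L-RalyKO 1 or L-RalyKO 2. Of 17 tested core clock genes only Nfil3 was called, higher (3.36% of all genes). It had 9.36, 14.6 and 13.5 in control and 20.8, 21.1 and 21 in L-RalyKO liver (log2 fold change 0.73, adjusted p = 0.0185, limma), and its adjusted p was 0.0555 to 0.0613 without any 1 of the L-RalyKO mice. The median of the clock list was 0.08, and between 0 and 5 of its genes were called over the alternatives. An unadjusted p under 0.05 in limma was reached by 8 of the 17 clock genes (22.7% of all genes), and 7 did not overlap between the groups (28.1%).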
